A study of Mus musculus with 4 samples.

Results

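The genes described here were 9 transcriptional regulators of blood stem cells, *Mecom*, *Hlf*, *Meis1*, *Mllt3*, *Prdm16*, *Runx1*, *Gata2*, *Erg* and *Tal1*. They were found by their gene names among the 39186 genes of one RNA sequencing table, and each name matched 1 gene. RNA came from LSK cells (Lin-Sca-1+c-Kit+), the sorted fraction of the mouse fetal liver that holds the hematopoietic stem cells and their nearest multipotent descendants. There were 2 *Pich*-KO samples and 2 *Pich*-WT samples, all of strain C57BL/6, and no treatment is named. PICH, listed in the table as *Ercc6l*, is an X-linked DNA translocase that acts on the thin DNA threads left between separating chromosomes, and the comparison asked how its loss changes the RNA of these cells. Per the study the knockout allele was made with TALENs and has a deletion at the start of the second exon, and fetal livers for sorting were taken at E14.5. The labels do not say whether the samples of a group came from separate embryos or pools, so p-values here measure only the spread between these samples.

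Blood stem cells are kept by a network of proteins that regulate transcription. Some, such as HLF, MECOM, PRDM16 and MLLT3, are highest in the stem cell itself and fall away as it commits to a lineage. Others, such as GATA2, TAL1, ERG and RUNX1, act together on shared enhancers with LMO2, LDB1 and FLI1 and stay active in many progenitors and mature lineages. In a bulk sample a fall in RNA from such a gene can reflect fewer cells of a type or less RNA per cell, and the 2 cannot be told apart.

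The table gave normalized counts, the reads on a gene divided by 1 size factor per sample, set relative to *Pich*-WT sample 2. Between 14703215 and 20933919 reads fell on genes in a sample. *Ercc6l* itself was at 1142 and 1232 in *Pich*-KO, against 772 and 661 in *Pich*-WT samples 1 and 2. A count per gene does not tell transcripts of the deleted allele from others, so this level does not check the genotype labels. *Pich*-WT sample 2 had 0 reads on 4 Y-linked genes and the others had 1607 to 2848. *Kit*, *Cd34* and *Ly6a*, which encodes Sca-1, were read in all 4 samples, but so were genes of cells that the gate should leave out. All 13 macrophage markers, all 10 erythroid markers and all 10 endothelial markers listed were lower in *Pich*-KO, and their values are given beside the results below.

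Promoters of 4 members are shown because the genes moved in opposite directions. The letters are the 250 bases before an annotated start, on the strand of the gene, from RefSeq on build GRCm38.p6. All 9 members matched, with 16 such windows between them. The 4 shown overlap no annotated exon and belong to the member that fell most (*Hlf*), the member that rose (*Runx1*, its proximal start) and the pair whose values ran closest together (*Gata2* and *Tal1*). Capitals mark matches, on either strand, to GATAA, the E-box CAGNTG that proteins like TAL1 bind, the RUNX-type TGNGGT, the ETS-type CGGAAG, the MEIS-type TGACAG, the PAR bZIP-type TTANGTAA and the interferon-type GAAANNGAA.
*Hlf*, chr11:90390918-90391167, minus strand: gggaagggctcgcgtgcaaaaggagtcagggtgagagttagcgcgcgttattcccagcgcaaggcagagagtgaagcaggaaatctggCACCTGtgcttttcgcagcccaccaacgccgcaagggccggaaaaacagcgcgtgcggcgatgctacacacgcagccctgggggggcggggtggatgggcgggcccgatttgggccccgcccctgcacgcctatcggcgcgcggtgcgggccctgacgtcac
*Runx1*, chr16:92697330-92697579, minus strand: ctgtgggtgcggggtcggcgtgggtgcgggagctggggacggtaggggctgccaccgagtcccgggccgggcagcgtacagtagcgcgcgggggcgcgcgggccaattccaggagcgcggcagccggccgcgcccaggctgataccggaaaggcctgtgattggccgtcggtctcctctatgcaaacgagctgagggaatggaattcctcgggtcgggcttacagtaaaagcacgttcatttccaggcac
*Gata2*, chr6:88193641-88193890, plus strand: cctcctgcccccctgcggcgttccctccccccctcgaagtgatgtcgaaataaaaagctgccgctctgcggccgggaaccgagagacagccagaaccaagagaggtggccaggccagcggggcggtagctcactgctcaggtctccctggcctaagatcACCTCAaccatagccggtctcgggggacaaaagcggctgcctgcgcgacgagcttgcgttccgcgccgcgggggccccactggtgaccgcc
*Tal1*, chr4:115056176-115056425, plus strand: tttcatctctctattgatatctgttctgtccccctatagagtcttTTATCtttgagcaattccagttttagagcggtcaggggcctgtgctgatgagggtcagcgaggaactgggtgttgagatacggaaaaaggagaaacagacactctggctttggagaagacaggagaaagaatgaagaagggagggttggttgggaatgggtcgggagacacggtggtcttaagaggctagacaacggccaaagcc
The *Hlf* window held 1 E-box, the *Gata2* window 1 RUNX-type match and the *Tal1* window 1 GATA match, and the *Runx1* window held none of the letters searched. This depends on the window shown, as the distal *Runx1* window held 2 E-box matches and the other windows of *Gata2* and *Tal1* held none. Among the 16 windows of the members, 4 held GATAA, 6 the E-box, 4 the RUNX-type, 2 the ETS-type, 3 the MEIS-type and 2 the interferon-type match, and 0 the PAR bZIP match. Of all 32851 windows of the same length, 22.6% held GATAA, 44.8% the E-box, 40.1% the RUNX-type, 13.6% the ETS-type, 15.9% the MEIS-type, 7.13% the interferon-type and 2.06% the PAR bZIP match. The interferon-type letters were found in 1 window each of *Mecom* and *Erg*. A match is a description of these letters and not a binding site.

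Of the 9 members, 1 was higher in *Pich*-KO (*Runx1*), 6 were lower (*Hlf*, *Mecom*, *Mllt3*, *Prdm16*, *Tal1*, *Gata2*) and 2 did not pass the test (*Meis1*, *Erg*). The test was limma on log2(normalized count + 1) with its variance trend and an adjusted p of 0.05, fitted over 32428 genes whose mean was 1 or more, and fold changes below are on that scale. In the same fit 17.2% of all genes tested passed, 7.58% higher and 9.6% lower. All members had means above 100, and of the 10544 genes with such means 43.6% passed, 21.1% higher and 22.4% lower. The 9 members' median log2 fold change was -0.71, beside 0.02 for all tested genes and 0.04 for those with means of 100 or more. For all 9, both *Pich*-KO values lay on one side of both *Pich*-WT values, above for 1 member and below for 8, and 56.1% of all genes tested were separated in this way. Of the 10544 genes with means of 100 or more, 4401 were separated above, 4038 were separated below and only 2105 overlapped. With 2 samples against 2, an exact permutation test of any single gene cannot give a two-sided p under 0.333.

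**Figure D1:**
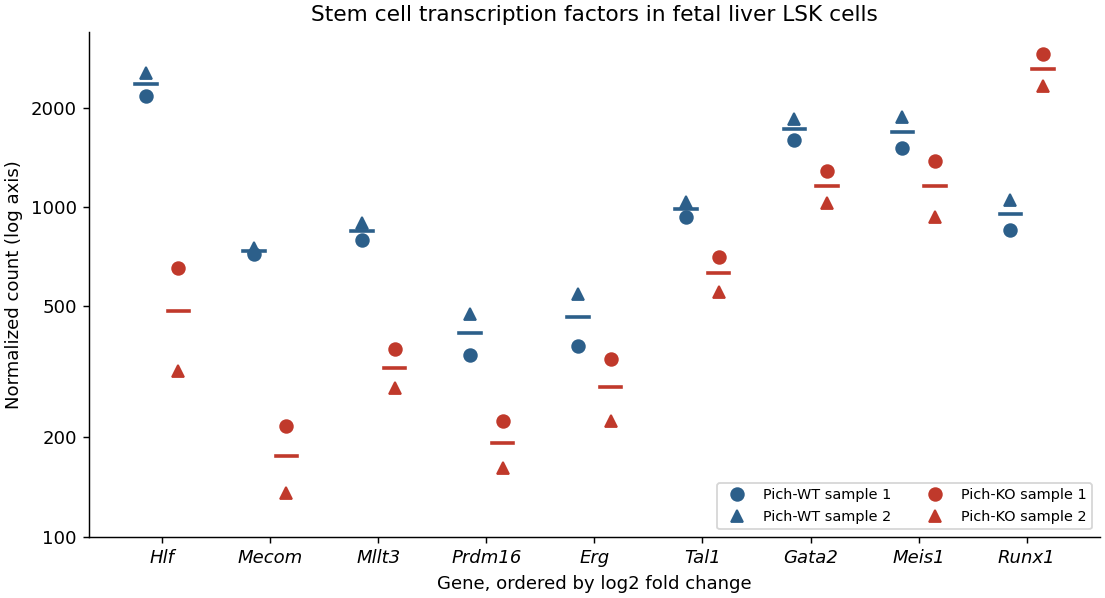
Normalized counts of the 9 members (log axis) in each of the 4 samples, ordered by log2 fold change, with a bar at each group's mean. The *Pich*-KO points lie under the *Pich*-WT points for every member but *Runx1*, and within each group the samples keep the same order, with sample 1 the higher in *Pich*-KO, and sample 2 the higher in *Pich*-WT.

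The 4 largest falls were in *Hlf*, *Mecom*, *Mllt3* and *Prdm16*, the members named above as highest in the stem cell. *Meis1*, which was grouped with these 4 as a stem cell gene, had the smallest log2 fold change of any member that fell (-0.57). The members and their grouping were chosen with earlier results of these data known. *Hlf* (ENSMUSG00000003949, chr11:90336536-90390895, minus strand) encodes a bZIP factor of the PAR family that marks stem cells and holds them in quiescence. Its normalized counts were 652 and 317 in *Pich*-KO samples 1 and 2, against 2172 and 2548 in *Pich*-WT samples 1 and 2. Even the higher *Pich*-KO sample was far below both *Pich*-WT samples, although the *Pich*-KO samples differed from each other more for *Hlf* than for any other member. The means of 485 ± 237 and 2360 ± 266 (SD, n = 2 each) gave a log2 fold change of -2.37 (95% confidence interval -3.05 to -1.69, adjusted p = 0.0012, limma). *Mecom* (ENSMUSG00000027684, chr3:29951296-30548008, minus strand) encodes EVI1 and its longer form with the MDS1 part, zinc finger proteins needed for stem cell self-renewal. Its counts were 216 and 135 in *Pich*-KO, against 720 and 751 in *Pich*-WT. The *Pich*-WT samples were close to each other and well apart from both *Pich*-KO samples, and the mean fell from 735 ± 22.1 to 176 ± 57.1 (SD, n = 2 each). The log2 fold change was -2.10 (95% confidence interval -2.64 to -1.55, adjusted p = 0.000748, limma). The table gives 1 value per gene, so the forms of *Mecom* are not told apart.

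*Mllt3* (ENSMUSG00000028496, chr4:87769925-88033364, minus strand) encodes AF9, a reader of acylated histones that links DOT1L and the elongation factors to chromatin and keeps stem cell genes active. It was at 370 and 282 in *Pich*-KO, against 796 and 894 in *Pich*-WT. Each group was tight against the gap between them, and the log2 fold change was -1.38 (95% confidence interval -1.80 to -0.97, adjusted p = 0.0015, limma). *Prdm16* (ENSMUSG00000039410, chr4:154316125-154636873, minus strand) encodes a zinc finger protein with a PR domain that is required for stem cell maintenance and is related to MECOM. It was at 225 and 161 in *Pich*-KO, against 356 and 475 in *Pich*-WT. The groups were apart by less than for *Mllt3*, with a log2 fold change of -1.11 (95% confidence interval -1.65 to -0.56, adjusted p = 0.0147, limma). *Meis1* (ENSMUSG00000020160, chr11:18879817-19018985, minus strand) encodes a TALE homeodomain protein that binds DNA with PBX and HOX partners. It was at 1375 and 932 in *Pich*-KO, against 1510 and 1876 in *Pich*-WT. The higher *Pich*-KO sample came near the lower *Pich*-WT sample, and the log2 fold change of -0.57 (95% confidence interval -1.03 to -0.12) did not pass (adjusted p = 0.0932, limma).

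Of the 4 regulators with wider use in blood, *Gata2* and *Tal1* were lower, *Erg* did not pass and *Runx1* was higher. *Gata2* (ENSMUSG00000015053, chr6:88193891-88207032, plus strand) encodes a zinc finger factor needed for the emergence and survival of stem cells, and remains on in mast cell and megakaryocyte progenitors. It was at 1287 and 1030 in *Pich*-KO, against 1597 and 1852 in *Pich*-WT. *Tal1* (ENSMUSG00000028717, chr4:115056426-115071755, plus strand) encodes a bHLH factor that specifies blood and is later used in red cells and megakaryocytes. It was at 706 and 552 in *Pich*-KO, against 935 and 1034 in *Pich*-WT. For both genes the *Pich*-KO values were below the *Pich*-WT range. The log2 fold change was -0.58 for *Gata2* (95% confidence interval -0.92 to -0.24, adjusted p = 0.0317, limma) and -0.65 for *Tal1* (95% confidence interval -1.03 to -0.28, adjusted p = 0.0276, limma). In limma *Gata2* did not pass with a pseudocount of 0.1 (adjusted p = 0.0588) or with no filter on the mean (adjusted p = 0.079), nor *Tal1* with no filter (adjusted p = 0.0662). *Erg* (ENSMUSG00000040732, chr16:95359169-95586593, minus strand) encodes an ETS factor of stem cells and endothelium. It was at 347 and 224 in *Pich*-KO, against 380 and 546 in *Pich*-WT. *Pich*-KO sample 1 was only just below *Pich*-WT sample 1, and the log2 fold change of -0.71 (95% confidence interval -1.31 to -0.10) did not pass (adjusted p = 0.118, limma).

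*Runx1* (ENSMUSG00000022952, chr16:92601466-92826149, minus strand) was the member that went the other way. It encodes a Runt-domain factor that starts the blood program in the embryo and is later used in myeloid, lymphoid and megakaryocyte cells. It was at 2905 and 2331 in *Pich*-KO, against 854 and 1053 in *Pich*-WT. The lower *Pich*-KO sample was well above the higher *Pich*-WT sample. The means of 2618 ± 405 and 954 ± 141 (SD, n = 2 each) gave a log2 fold change of 1.46 (95% confidence interval 1.10 to 1.81, adjusted p = 0.000589, limma). *Runx1* has a distal and a proximal start whose products differ at the amino end, and they are not told apart in a value per gene.

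**Figure D2:**
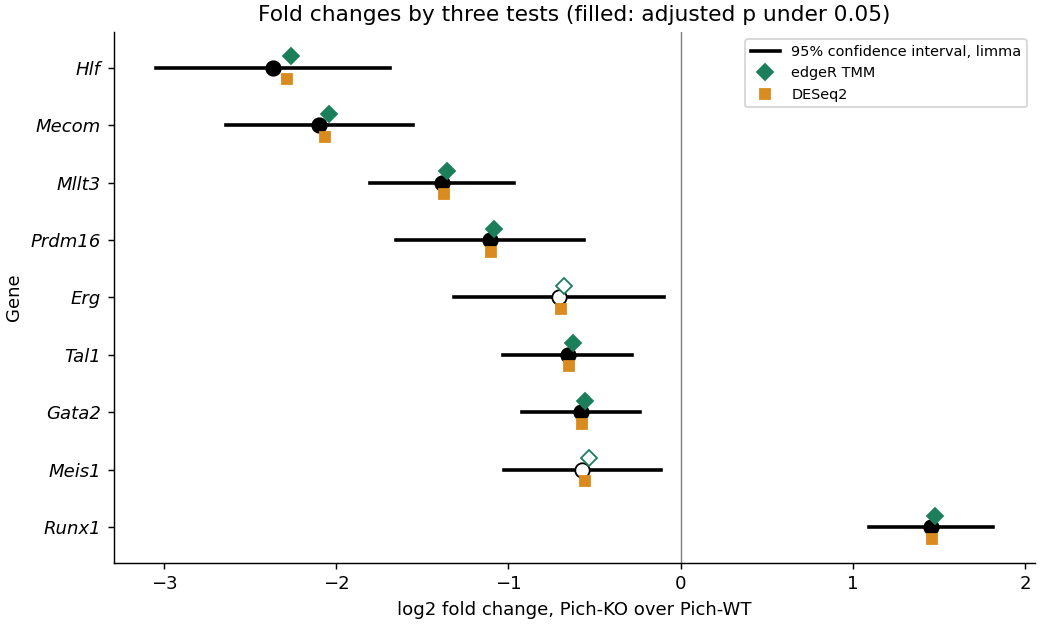
Log2 fold change of each member, *Pich*-KO over *Pich*-WT, with limma's 95% confidence interval as a bar and the estimates of edgeR (TMM scaling) and DESeq2 beside it, filled where the adjusted p was under 0.05. The values of the other tools lay within 0.104 of limma's for each member, and *Meis1* and *Erg* are filled for DESeq2 alone.

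With limma's variance trend left out no member passed, and 0 of all genes tested were called in either direction. The limma fits without any 1 of the 4 samples have 1 group that is a single sample assumed to vary like the others. Only their fold changes are given here, and their calls are given with the other settings below. In all of these fits the direction held for all 9. Without *Pich*-KO sample 2 *Meis1* and *Erg* had log2 fold changes of -0.29 and -0.39, and without *Pich*-KO sample 1 they were -0.85 and -1.02. Without *Pich*-WT sample 2, the sample without Y-linked reads, *Hlf* was at -2.25, *Mecom* at -2.07 and *Runx1* at 1.61.

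Levels can be compared between genes per length, here as the normalized count per kb of annotated exons. In *Pich*-WT the order of the group means was *Hlf* (353), *Gata2* (319), *Tal1* (225), *Meis1* (161), *Erg* (134), *Runx1* (79.3), *Mllt3* (70.4), *Mecom* (59.2) and *Prdm16* (44.6). The samples of neighbours in this order overlapped for *Hlf* and *Gata2*, for *Meis1* and *Erg* and for *Runx1* and *Mllt3*, and not for the others. In *Pich*-KO the order was *Runx1* (218), *Gata2* (215), *Tal1* (144), *Meis1* (109.5), *Erg* (82.3), *Hlf* (72.5), *Mllt3* (27.1), *Prdm16* (20.7) and *Mecom* (14.1). *Runx1* went from the sixth place to the first, level with *Gata2*, and *Hlf* from the first to the sixth, while *Gata2*, *Tal1*, *Meis1*, *Erg* and *Mllt3* kept their places. In *Pich*-KO the neighbours in the order overlapped except for *Gata2* and *Tal1* and for *Hlf* and *Mllt3*.

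**Figure D3:**
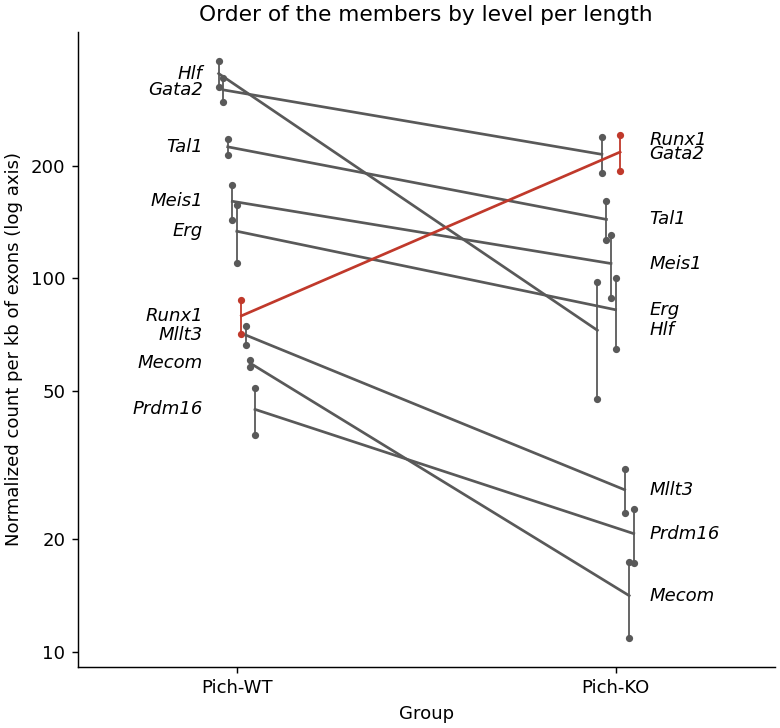
Normalized count per kb of annotated exons (log axis) of each member in *Pich*-WT and *Pich*-KO, with a line between the group means and small bars joining the 2 samples of a group. *Runx1*, in red, crosses upward from 79.3 to 218 while *Hlf* drops from 353 to 72.5.

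Ratios within a sample do not depend on the size factor. The ratio of *Runx1* to *Mecom* counts was 13.4 and 17.2 for *Pich*-KO but 1.19 and 1.40 for *Pich*-WT. *Runx1* stood to the sum of *Gata2*, *Tal1* and *Erg* as 1.24 and 1.29 in *Pich*-KO, against 0.293 and 0.307 in *Pich*-WT. These ratios were far apart between the groups and close within each. *Hlf* to *Gata2* was 0.507 and 0.308 in *Pich*-KO, against 1.36 and 1.38 in *Pich*-WT, and *Mecom* to *Gata2* was 0.168 and 0.131 against 0.451 and 0.406. By contrast *Tal1* to *Gata2* was 0.548 and 0.536 against 0.585 and 0.558, and *Meis1* to *Gata2* was 1.07 and 0.905 against 0.946 and 1.01, with overlap. Thus the *Hlf* and *Mecom* ratios separated the groups widely, the *Tal1* ratio barely and the *Meis1* ratio not at all. *Runx1* made up 35.9% and 39.1% of the summed counts of the 9 genes in *Pich*-KO but only 9.17% and 9.55% in *Pich*-WT. The summed count of the other 8 was 5178 and 3634 in *Pich*-KO, against 8464 and 9976 in *Pich*-WT.

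The members also moved together between samples of the same group. In *Pich*-KO all 9 were higher in sample 1, and in *Pich*-WT all 9 were higher in sample 2, *Runx1* included. Of 10544 genes with means of 100 or more, 52.2% were higher in *Pich*-KO sample 1, 34.9% were higher in *Pich*-WT sample 2, and 18.3% were both. All 9 kept both directions when the counts were scaled by TMM or by the upper quartile. In *Pich*-KO the log2 ratio of sample 1 to sample 2 ran from 0.32 for *Runx1* to 1.04 for *Hlf*, and in *Pich*-WT from -0.52 for *Erg* to -0.06 for *Mecom*. Genes of the LSK gate went the same way, both directions holding for 7 of 8. Endothelial markers did not, as 10 of 10 were higher in *Pich*-KO sample 1 but 0 of 10 in *Pich*-WT sample 2. Myeloid granule genes such as *Mpo* and *Elane* were higher in *Pich*-KO sample 1 for 0 of 9, and in *Pich*-WT sample 2 for 8 of 9. Of transcription factors at such means, 174 of 668 showed both directions (26.0%), as did 305 of the 1205 such genes with bodies over 100 kb (25.3%). Of the 9 members, 6 have bodies over 100 kb.

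**Figure D4:**
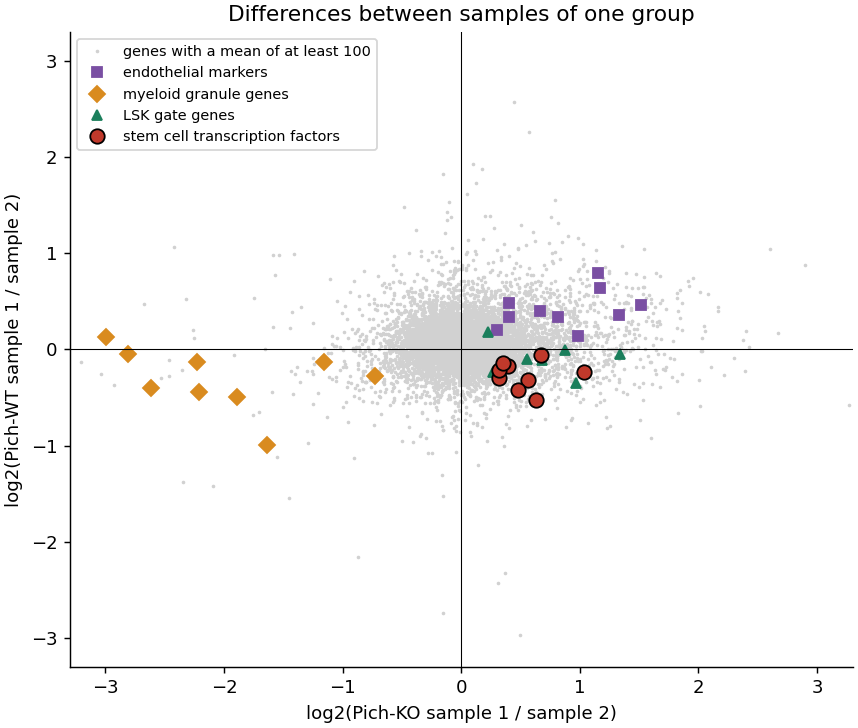
Each point is a gene, placed by log2 of sample 1 over sample 2 in *Pich*-KO (horizontal) and in *Pich*-WT (vertical), for the 10544 genes with means of 100 or more in grey, less 9 that lie outside the axes. The 9 members, in red, all lie to the right of 0 and below 0, while the 10 endothelial markers lie to the right and above 0.

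Markers of other cells also differed between the groups, not all in the direction of most members, and their part in the results was not tested. Genes counted as lower or higher in these lists are limma calls. Such calls were made for 17.2% of all genes tested and 43.6% of those with means of 100 or more. Endothelial genes, among which *Erg*, *Mecom*, *Tal1* and *Gata2* are also known, had a summed normalized count of 7731 and 5135 in *Pich*-KO, against 47252 and 34041 in *Pich*-WT, with 10 of 10 lower and a median log2 fold change of -3.41. Each of the 9 members was higher in the *Pich*-WT sample with the lower endothelial sum, and in the *Pich*-KO sample with the higher one. The macrophage list summed to 13705 and 12804 against 75885 and 75627, with 13 of 13 lower, and the erythroid list to 32094 and 34251 against 197640 and 139382, with 10 of 10 lower. The lineage antibodies named in the methods were CD4, CD8, Gr-1, B220 and Ter119, of which Ter119 marks late red cells and none marks macrophages or endothelium. Megakaryocyte genes summed to 3892 and 2264 against 8690 and 6923 (3 of 9 lower), and hepatocyte genes to 3170 and 2801 against 5106 and 4581 (6 of 10 lower). In the other direction, mast cell and basophil genes summed to 1286 and 1792 against 410 and 514 (3 of 7 higher) and myeloid granule genes to 64583 and 121850 against 16015 and 18848 (3 of 9 higher). Most of the granule sum was *Mpo*, at 54650 and 90490 against 10350 and 12533. For 6 of the 9 granule genes the groups overlapped, and *Ngp* and *S100a9* had log2 fold changes of -0.49 and -0.16. The lymphoid list was nearly level, at 1492 and 1547 against 1700 and 1622, with 1 of 11 higher. No listed marker was at 0 in every sample.

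The gate's own genes did not move as one. Of 8 listed, *Ly6a* was higher, with normalized counts of 3586 and 2978 in *Pich*-KO, against 901 and 1061 in *Pich*-WT (log2 fold change 1.74, adjusted p = 0.000167, limma). *Procr*, which encodes the stem cell surface protein EPCR, was lower, at 76.3 and 38.6 against 362 and 460 (log2 fold change -2.88, adjusted p = 0.000872, limma). *Slamf1*, which encodes CD150, was lower by less, at 65.4 and 62.5 against 118 and 123 (log2 fold change -0.90, adjusted p = 0.0445, limma). Thus the gate gene that encodes Sca-1 was higher, while *Procr* and *Slamf1* were lower. The other 5 gate genes did not pass. EPCR is short for endothelial protein C receptor, and the endothelial list had a median log2 fold change of -3.41. Whether the fall of *Procr* came from stem cells or from endothelial cells was not tested.

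Among 30 genes for proteins that work in complexes with the members, 3 were higher, 12 lower and 15 did not pass, with a median log2 fold change of -0.26. This is 50% called, beside 17.2% of all genes tested and 43.6% of those with means of 100 or more. The largest falls were in the partners of TAL1, MEIS1 and MLLT3. *Ssbp3*, which encodes a single-stranded DNA binding protein that stabilizes LDB1, was at 572 and 293 in *Pich*-KO, against 2610 and 2322 in *Pich*-WT (log2 fold change -2.58, adjusted p = 0.000589, limma). *Pbx3*, a homeodomain partner of MEIS1, was at 89.4 and 37.5 against 282 and 254 (log2 fold change -2.19, adjusted p = 0.00614, limma). *Ell2*, an elongation factor found with AF9, was at 440 and 477 against 1125 and 933 (log2 fold change -1.16, adjusted p = 0.00162, limma). In each of these both *Pich*-KO samples were well below both *Pich*-WT samples. *Ldb1* (-1.06), *Lmo2* (-0.49), the E protein gene *Tcf3* (-0.60), *Cbfb* (-0.83), *Pbx2* (-0.94), *Zfpm1* (-0.91), *Ctbp1* (-0.87) and *Ctbp2* (-0.56) were among the others that were lower, as log2 fold changes. *Cbfb* encodes the partner that RUNX1 needs for stable DNA binding, and it stood at 1504 and 1138 in *Pich*-KO, against 2290 and 2361 in *Pich*-WT (adjusted p = 0.0063, limma), the opposite direction to *Runx1*. The 3 that were higher were *Aff1* (0.72), *Lyl1* (0.56) and *Dot1l* (0.47), with adjusted p of 0.0334, 0.0123 and 0.0497 (limma). With no filter on the mean *Aff1* and *Dot1l* did not pass (adjusted p = 0.0591 and 0.0782, limma). *Dot1l* also did not pass with a pseudocount of 0.1 (adjusted p = 0.0631, limma). AFF1 and DOT1L are partners of AF9, and LYL1 is a bHLH protein close to TAL1, at 3137 and 3730 against 2390 and 2257. *Fli1*, *Gata1*, *Spi1* and *Hoxa9* did not pass, with log2 fold changes of -0.36, -0.36, 0.13 and -0.23.

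Of 12 close relatives (paralogs) of the members, 1 was higher (*Lyl1*) and 2 lower, with a median log2 fold change of -0.36. The share called was 25%, beside 17.2% of all genes tested and 43.6% of those with means of 100 or more. *Meis2* was at 30.5 and 15.9 in *Pich*-KO, against 276 and 211 in *Pich*-WT, which is -3.39 on the log2 scale (limma adjusted p = 0.000611). *Meis3* was at 22.9 and 7.96 against 64.1 and 64.0, which is -2.15 on the log2 scale (limma adjusted p = 0.023). Both were nearly lost from *Pich*-KO sample 2, with 14 and 7 reads. The relatives of *Runx1* had log2 fold changes of 0.02 for *Runx2* (95% confidence interval -0.44 to 0.49) and 0.33 for *Runx3* (95% confidence interval -0.05 to 0.71), and neither passed. *Gata3* was at 208 and 51.2 against 230 and 287, with its *Pich*-KO samples far apart, and did not pass. In the table's own families of DNA-binding proteins, 44 of 551 zf-C2H2 genes (the family of *Mecom* and *Prdm16*) were higher and 58 lower, and 1 of 152 homeobox genes (*Meis1*) was higher and 17 lower. Of 79 bHLH genes (*Tal1*) 7 were higher and 21 lower, and of 46 bZIP genes (*Hlf*) 9 were higher and 15 lower. Of 26 ETS genes (*Erg*) 4 were higher and 5 lower, of 13 GATA genes (*Gata2*) 3 and 4, and of 3 Runt genes *Runx1* alone was called. Of all 1319 transcription factors tested, 24.8% were called, 114 higher and 213 lower.

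Of 21 other known regulators of stem cells, 3 were higher and 10 lower, with a median log2 fold change of -0.72. The share called was 61.9%, beside 17.2% of all genes tested and 43.6% of those with means of 100 or more. *Sox17*, which drives fetal stem cells and is also an endothelial gene, was at 8.73 and 9.09 in *Pich*-KO, against 594 and 330 in *Pich*-WT (log2 fold change -5.49, adjusted p = 7.2e-05, limma). *Foxo1*, a mediator of insulin signalling, was at 177 and 80.7 against 1091 and 822 (log2 fold change -2.98, adjusted p = 0.000858, limma). *Nkx2-3*, a homeobox gene of stem cells and of vessels, was at 122 and 71.6 against 329 and 373 (log2 fold change -1.89, adjusted p = 0.00273, limma). The *Sox17* values in *Pich*-KO rested on 8 reads in each sample, and for all 3 genes the groups were far apart. The 3 that were higher were *Etv6*, *Zfx* and *Myb*. *Etv6*, an ETS repressor needed by adult stem cells, was at 2130 and 1755 against 631 and 591 (log2 fold change 1.66, adjusted p = 0.000218, limma). *Zfx*, an X-linked zinc finger gene of stem cell self-renewal, was at 383 and 424 against 133 and 138 (log2 fold change 1.57, adjusted p = 0.00103, limma). *Myb*, a driver of progenitor division, was at 2715 and 2418 against 1582 and 1873 (log2 fold change 0.57, adjusted p = 0.0162, limma). Thus *Runx1*, *Etv6*, *Zfx* and *Myb* were higher in both *Pich*-KO samples than in either *Pich*-WT sample.

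Among 17 genes known to be bound and regulated by a member, 1 was higher, 8 were lower and 8 did not pass, with a median log2 fold change of -0.86. This is 52.9% called, beside 17.2% of all genes tested and 43.6% of those with means of 100 or more. The one that was higher was *Mpo*, the myeloperoxidase of granulocyte precursors and a target of RUNX1, at 54650 and 90490 in *Pich*-KO, against 10350 and 12533 in *Pich*-WT (log2 fold change 2.63, adjusted p = 0.000151, limma). It was higher in the *Pich*-KO sample with the lower *Runx1*, and it is also 1 of the 9 myeloid granule genes. Among those that were lower, the red cell membrane gene *Epb42* was at 299 and 371 against 1318 and 1193, or -1.91 on the log2 scale (limma adjusted p = 0.000219). It is a target of TAL1 and GATA factors and is in the erythroid list. *Trib2*, a pseudokinase gene, was at 37.1 and 27.3 against a *Pich*-WT mean of 88.0 ± 17.0 (SD, n = 2), with a log2 fold change of -1.43 (limma adjusted p = 0.0215). *Csf1r* (-1.33) and *Cebpa* (-1.33), which are targets of RUNX1 and PU.1 in myeloid cells, *Gfi1* (-1.13) and *Itga2b* (-0.86) were also lower, as log2 fold changes. *Csf1r* is in the macrophage list and *Itga2b* in the megakaryocyte list. *Kit* was at 4447 and 2772 against 2328 and 2513 and did not pass (adjusted p = 0.114, limma).

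**Figure D5:**
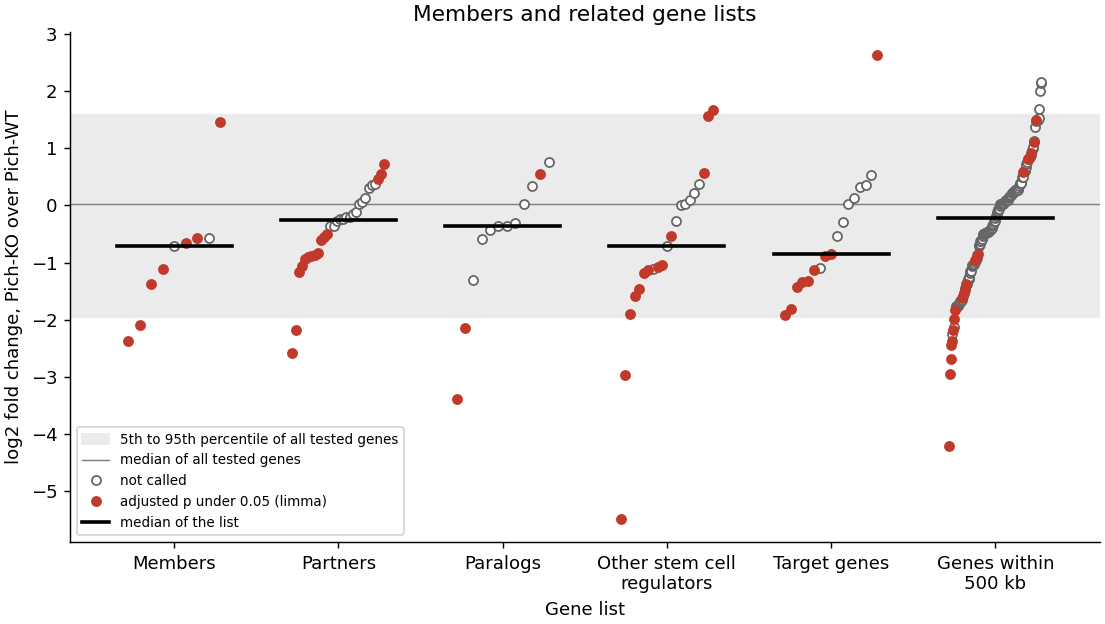
Log2 fold change of every tested gene of each list (points, filled where limma's adjusted p was under 0.05), with a black bar at the list's median, and the median and the 5th to 95th percentile of all tested genes as a line and a grey band. The medians are -0.71 for the members, -0.26 for partners, -0.36 for relatives, -0.72 for other regulators, -0.86 for targets and -0.22 for genes within 500 kb.

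The share of called genes beside the members was near that of all genes. Within 500 kb of a member's body the table listed 175 other genes, of which 149 were tested, 7 were higher and 14 lower (14.1% called, beside 17.2% of all genes). The median log2 fold change was -0.22. Beside *Hlf* and *Meis1* 0 of 10 and 0 of 11 tested genes were called by limma, with an unadjusted p under 0.05 for 2 genes each, and edgeR and DESeq2 called 0 there as well. Beside *Mecom* limma called 1 of 20, *Prkci* (a log2 fold change of 0.82), while edgeR and DESeq2 each called 1 higher and 2 lower. Beside *Runx1* limma and DESeq2 called 1 gene and edgeR 2, all lower, and the limma call was *Rcan1*, an inhibitor of calcineurin, at 259 and 220 in *Pich*-KO, against 982 and 912 in *Pich*-WT. Thus no neighbour of *Runx1* was called higher by these tools. Next to *Tal1*, limma called 1 of 24, *Pdzk1ip1*, which lies 16.9 kb from *Tal1* and went from 221 and 205 in *Pich*-WT to 36.0 and 28.4 in *Pich*-KO (log2 fold change -2.70, adjusted p = 0.000447, limma). *Kcnj15*, a potassium channel gene 58.9 kb from *Erg*, went from 67.2 and 37 to 5.45 and 5.68 (log2 fold change -2.96, adjusted p = 0.0045, limma). *H1fx*, a linker histone gene 212 kb from *Gata2*, went from 80.5 and 43 to 2.18 and 2.27, the latter resting on 2 reads in each sample, so no fold is given. The neighbours with the largest rises were *Pank4* near *Prdm16* (1.49), *Focad* near *Mllt3* (1.12) and *Ruvbl1*, an ATPase gene near *Gata2* (0.91), as log2 fold changes. The antisense gene *Gm13133* lies within *Prdm16* and had 1 and 2 reads in *Pich*-KO. The libraries are not stated to keep strand, so its reads cannot be told from those of *Prdm16*.

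The genes most like each member over the 4 samples were sought among the 10543 other genes whose mean was 100 or more. The measure was the largest difference, in any sample, between the log2 values after each gene's own mean was subtracted, and with 4 samples many genes can come close by counting error and by the shared group difference. For *Mecom* they were *Ckb* (0.03), *Samd4b* (0.05) and *Kdm1a* (0.06), the last a histone demethylase gene, at 413 and 258 in *Pich*-KO, against 1450 and 1427 in *Pich*-WT. For *Hlf* they included *Sox13* (0.10) and *Smpdl3a* (0.12), and *Sox13* stood at 129 and 67.1 against 475 and 486. These genes were chosen for their likeness, so their fall is no separate result. For *Mllt3* they were *Pank1* (0.02), *Fcgr4* (0.04) and *Aebp2* (0.07), for *Prdm16* *Zcwpw1* (0.06), *Xrcc5* (0.07) and *Rab38* (0.08), and for *Meis1* *Tuft1* (0.06), *Ksr1* (0.06) and *Atp13a2* (0.07). For *Gata2* they were *Pkp4* (0.03), *Kiz* (0.03) and *Alg2* (0.05), for *Tal1* *Ppp4r2* (0.04), *Plekhb2* (0.04) and *Rgs1* (0.05), and for *Erg* *Tnip3* (0.11), *Mast4* (0.13) and *Zfp358* (0.14). For *Runx1* they were *Cd33* (0.06), a myeloid surface receptor gene at 1123 and 832 against 328 and 378, *Uba7* (0.06), the activating enzyme of the interferon-induced modifier ISG15, at 4405 and 3384 against 1347 and 1599, and *Zfp516* (0.07). Among the members themselves the closest pair was *Gata2* and *Tal1* (0.07), followed by *Meis1* and *Gata2* (0.12), and the farthest was *Hlf* and *Runx1* (2.27). *Mecom* and *Hlf* were 0.32 apart.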

How the data were processed

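RNA of sorted fetal liver LSK cells from 2 *Pich*-KO and 2 *Pich*-WT samples was measured. The authors deposited 1 table whose sample values are a signal, the reads counted on each gene divided by a size factor, and the table also holds the log2 fold changes and p-values of the authors' own comparison, which were not used. The counter and annotation are not given in the sources used here. The submitters' processing notes name Bowtie 0.12.2 and builds mm8 and mm9, but the starts and ends of 97.8% of 39131 genes match GENCODE M21, so coordinates are on GRCm38. Division by the step of 1 read gave whole reads for 100% of values (tolerance 0.1 read), with 14703215 to 20933919 reads per sample. Replicates differed by more than counting noise (chi-square per degree of freedom 17.7 in *Pich*-KO and 9.54 in *Pich*-WT).

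The main test was limma 3.58.1 with trend (R 4.3.3) on log2(value + 1), with genes of mean at least 1 and Benjamini-Hochberg adjustment over 32428 genes. Alternatives were a pseudocount of 0.1, no filter, at least 10 in every sample, no variance trend, a replicate block, edgeR 4.0.16 quasi-likelihood with TMM or upper-quartile scaling and DESeq2 1.42.0 on the recovered reads, and leaving out each sample. Scripts were tested on simulated counts. The members and lists were chosen with earlier results of these data known. Genes named were the members, for each list the 3 highest and the 3 lowest log2 fold changes past the threshold, and for each member the 3 most alike. Other genes were named after their values were seen. The values of some genes that this rule names are not reported here.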

Additional observations from a re-analysis of the deposited data

How the results depend on the processing

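The direction of all 9 members held under every alternative run, and outside the fits that left out a sample their log2 fold changes moved by at most 0.112 (*Hlf*, edgeR with upper-quartile scaling). *Meis1* and *Erg* passed with the replicate block (adjusted p = 0.0036 and 0.012, limma) and with DESeq2 (adjusted p = 0.028 and 0.0381). The block treats same-numbered samples as pairs, although these did not deviate together (below). It also leaves fewer residual degrees of freedom than the main fit. *Gata2* no longer passed with a pseudocount of 0.1 (adjusted p = 0.0588, limma), and neither *Gata2* (adjusted p = 0.079) nor *Tal1* (adjusted p = 0.0662) passed with no filter. The adjusted p of *Runx1* was 1.21e-13 to 0.00746 outside the fits without the variance trend or without a sample.

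With no variance trend limma called 0 genes in either direction, over all genes and in every list (members, partners, relatives, other regulators, targets and neighbours), while 7377 genes had an unadjusted p under 0.05. Leaving out each sample in turn also gave 0 calls, lowest and highest, in all of these, with 5757 to 8599 genes at an unadjusted p under 0.05. These fits have 1 residual degree of freedom, with the lone sample assumed to vary like the others.

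Some list counts moved by more than 1.5 times. Partners lower were 7 with the pseudocount of 0.1 and 6 with no filter, and partners higher 1 with no filter. Relatives lower were 1 with that pseudocount, with no filter and with at least 10 in every sample, and 4 with the replicate block. Targets higher were 2 with at least 10 in every sample, edgeR, DESeq2 and the replicate block.

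The same-numbered samples did not deviate together (Pearson r = 0.01 across 10544 genes, which are not independent), so the numbers were not taken to pair the samples. With the block 3122 genes were higher and 3874 lower, beside 2459 and 3113 without it. On the recovered reads edgeR with TMM scaling called 3097 higher and 3436 lower, and DESeq2 2605 and 3176.

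Depth did not limit the members, whose lowest count was 119 reads, whereas 45 of the 175 neighbours had 3 reads or fewer in every sample.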
